A study of Mus musculus with 36 samples.

Results

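The ERK feedback target genes described here are 10 genes whose transcription follows signalling through the ERK kinases, and several of whose products act back on that pathway. They are *Spry1*, *Spry2*, *Spry4*, *Spred1*, *Spred2*, *Dusp4*, *Dusp6*, *Etv4*, *Etv5* and *Egr1*. They were chosen by gene symbol, and all 10 were found among the 21442 genes of the count table. The RNA-seq series followed *Zfp266*, which encodes a KRAB zinc finger protein, through reprogramming of mouse embryonic fibroblasts (MEFs) to induced pluripotent stem cells (iPSCs) and asked how its knockout (KO) alters expression. It has 36 libraries in 12 groups of 3, made up of 6 stages in wild-type (WT) and KO cells.

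In the ERK pathway, growth factor receptors activate Ras, which acts through a chain of kinases on ERK. The Sprouty proteins (*Spry1*, *Spry2*, *Spry4*) and the Spred proteins (*Spred1*, *Spred2*) restrain the signal upstream of these kinases, and the phosphatases encoded by *Dusp4* and *Dusp6* remove the activating phosphates from ERK itself. *Etv4* and *Etv5* encode Ets transcription factors of the PEA3 group and *Egr1* an immediate early zinc finger factor, and the RNA of these genes is widely used as a readout of the pathway. In mouse ESCs, FGF4 acting through ERK favours exit from self-renewal.

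MEFs are given as strain 129 fibroblasts of passage 2 from E12.5 embryos. Per the methods of the study they came from chimeras made with an ESC line that carries Cas9 at *Rosa26*, a *Nanog*-GFP reporter with puromycin resistance, and a doxycycline-inducible cassette of *Myc*, *Klf4*, *Oct4* and *Sox2* (MKOS) linked to mOrange. The study collected the embryos for these chimeras from B6CBAF1 females. MEF libraries may therefore include host cells of another background that lack Cas9 and the cassette. WT MEFs received a lentivirus with a non-targeting guide RNA and KO MEFs one with a *Zfp266* guide RNA. Each KO library of MEFs or reprogramming cells is thus an edited population and not a clone. For reprogramming, a small number of these MEFs was mixed with WT 129 MEFs before transduction. Cells at day 3 (D3), day 5 (D5) and day 7 (D7) of doxycycline and vitamin C treatment were sorted for mOrange, while no sort is described for MEFs. WT and KO iPSCs were 3 single-cell clones per genotype grown without doxycycline under puromycin. The 3 WT ESC libraries came from the 1 parental line, Clone J, of 129 background per the study and with no strain in the labels, and the 3 KO ESC libraries were single-cell clones of it.

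MEF medium contained FGF2 and heparin. ESC medium and reprogramming medium lacked both and contained LIF. The step from MEFs to D3 therefore changed the culture medium, the transgene and the sorting together, and their parts cannot be told apart here. Bulk libraries do not separate fewer expressing cells from less RNA per cell.

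Total counts ran from 19224103 to 39610939 per library. Every value below is a normalised read count, which is a raw count divided by the size factor of the library, unless a log2 fold change (log2FC) is named. *Zfp266* itself read 2924, 3096 and 2828 in WT MEFs and 3235, 3293 and 3072 in KO MEFs, so its RNA was not lower in the cells labelled KO. It was also not lower in KO at D3, where it read 1824 to 2049.5 against 1417 to 1598. In iPSCs it read 1954, 1892 and 2212 in KO and 2529, 2817 and 2594 in WT. Guide RNA cuts leave small changes in the coding sequence, which RNA levels do not check. The study reports that a large majority of *Zfp266* cDNA from the edited MEFs carried out-of-frame changes. It also checked the KO iPSC and ESC clones by genotyping. A gene was called when the Benjamini-Hochberg FDR of DESeq2 over all genes was below 0.05, and a DEG was also required to have log2FC > |1|. The labels do not say that replicates were separate cultures, so the FDR measures the spread between these samples, which may be technical. Summed over 7 pluripotency markers, MEF libraries held 19.7 to 30.8, and the iPSC and ESC libraries 96453 to 130786. The 8 fibroblast markers ran the other way, from 396461 to 565214 in MEFs to 122 to 276 in iPSCs and ESCs. These marker levels follow the stage labels.

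The library MEF KO replicate 3 stands apart and bears on the results below. In it, 9 of the 10 members lay at least 2-fold below every other MEF library, as did 5.22% of 14147 genes with a mean of at least 50 in MEFs. *Spry4* stood at 906 in this library and at 6247 to 6439 in the other 5. *Etv4* stood at 288 against 2202 to 2419.8, and *Dusp6* at 1652 against 9784 to 10419. *Spry2* was the exception, at 4198 against 6412 to 7065. No member was that far from the rest in any of the other 5 MEF libraries.

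**Figure D1:**
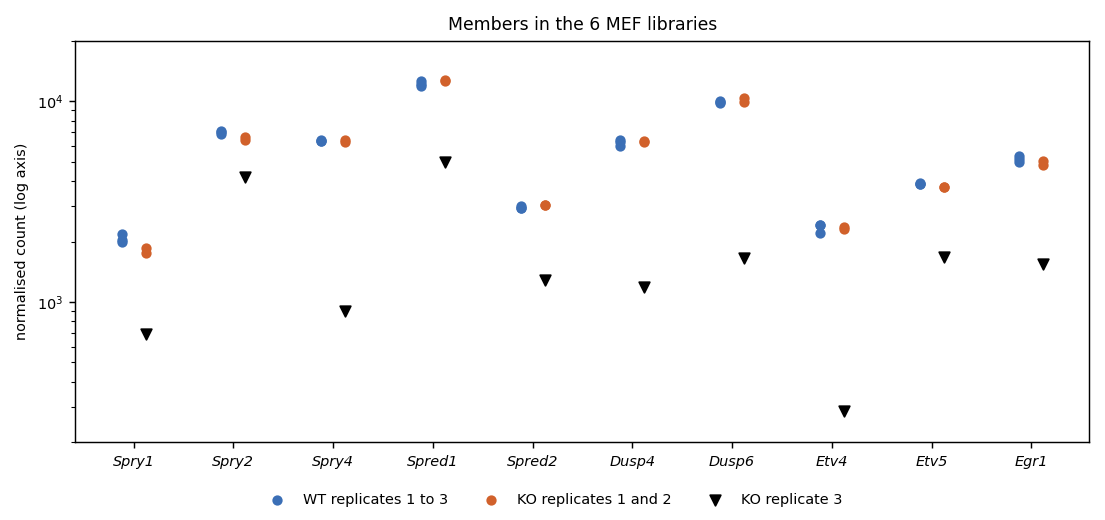
Normalised counts (log axis) of the 10 members in the 6 MEF libraries, with blue points for WT, orange points for KO replicates 1 and 2, and a black triangle for KO replicate 3. The triangle lies below all other points for every gene, from 1.53-fold below the nearest of them for *Spry2* to 7.64-fold below for *Etv4*.

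The same library had 0 of 22 ERK cascade components (genes of receptor adaptors and of the kinase chain) 2-fold below the others, and 9 of 15 other ERK-responsive genes, among them *Fos*, *Fosl1*, *Dusp5*, *Etv1* and *Egr3*. Its sum of 6 epithelial markers was 419.5 against 1827 to 2943 in the other MEF libraries, and its sum of 5 immune markers 376 against 584 to 716. *Krt18* and *Krt8* made up most of the epithelial sums in MEFs. The 8 fibroblast markers summed to 565214 there and to 396461 to 442446 elsewhere. Of these markers *Thy1* (11899 against 18412 to 19291) and *Twist2* (1715 against 2090 to 2334) were lowest in this library, and the others were highest in it. Whether these differences have a part in the low member levels was not tested. Because all 36 libraries share 1 dispersion estimate per gene, this library also enters the error of comparisons that do not contain it. Calls from a 35-library fit without it are therefore given beside the 36-library calls where they differ, and that fit was added after the values were seen. Leaving out a library in which the members lie apart narrows their spread. Calls gained in that fit are thus not independent support for the members. Shares of all genes called are those of the 36-library fit, and none is given for the 35-library fit.

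In WT cells *Spry1*, *Spry2*, *Spry4*, *Spred1*, *Dusp6* and *Etv5* were high in MEFs, low at D3 and D5, and high again in pluripotent cells. *Dusp4* and *Etv4* fell from MEFs to D3, and their ESC and D3 levels were not told apart. *Spred2* varied little, and *Egr1* was lowest in iPSCs and ESCs. On a per-kilobase scale, which allows levels of different genes to be compared, WT MEFs had most *Spry2* (3344 ± 57.2 normalised counts per kb of exon, mean ± SD, n = 3) and *Dusp6* (3158 ± 30.5), and least *Spred2* (639 ± 7.61). At D5 *Spred2* came first (441 ± 38.2) and *Dusp6* (22.3 ± 2.23) and *Spry1* (17.8 ± 4.94) came last. In WT iPSCs *Etv5* came first (2757 ± 329), before *Spry2* (2097 ± 276) and *Spry4* (1721 ± 456), and *Egr1* last (55.1 ± 10.7).

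**Figure D2:**
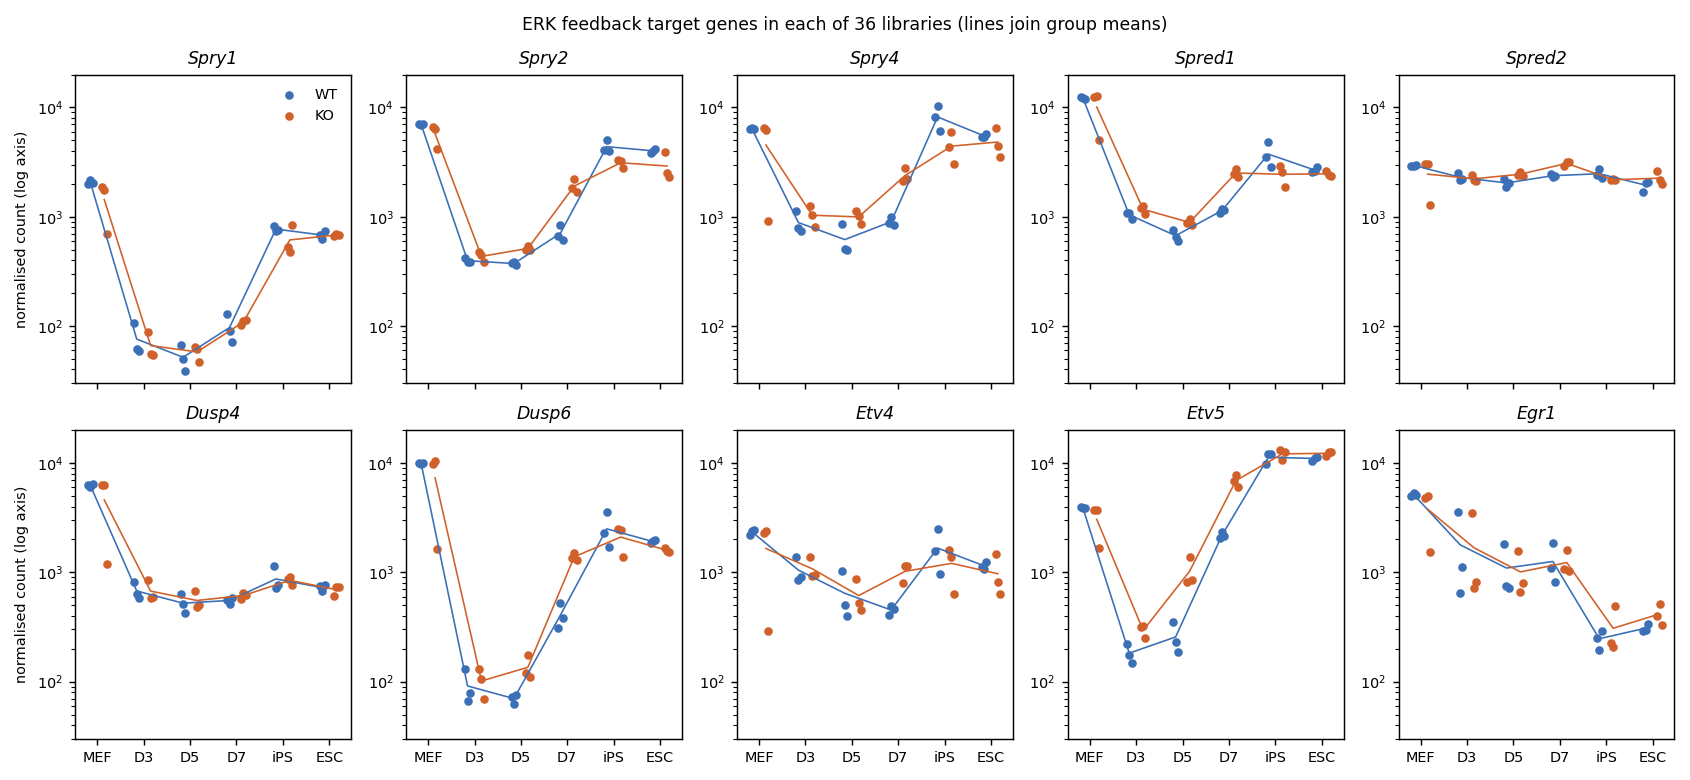
Normalised counts (log axis) of each member in all 36 libraries by stage, WT in blue and KO in orange, with lines joining the means of 3 libraries. *Dusp6* spans 142-fold between its highest and lowest WT stage means and *Spred2* 1.52-fold. At D7 the orange line lies above the blue line for every member but *Egr1*. The gap there is narrow for *Spry1* (means of 109 in KO and 96.8 in WT) and *Dusp4* (613 and 553).

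The genes lie on 8 chromosomes and share no exon with one another. In GRCm38, *Dusp6* (ENSMUSG00000019960) occupies chr10:99263231-99267489 on the plus strand with 4 merged exons, *Spry2* (ENSMUSG00000022114) chr14:105891947-105896819 on the minus strand with 2, *Spred1* (ENSMUSG00000027351) chr2:117121374-117182279 on the plus strand with 7, and *Etv5* (ENSMUSG00000013089) chr16:22381309-22439719 on the minus strand with 15. *Spry1* overlaps an opposite-strand gene, Gm42922, and whether the counting used the strand is not given in the sources used here. *Etv5* has a near-identical processed copy, Gm4798, at chr10:71704290-71705988, 98.6% identical to an *Etv5* transcript over 1700.0 aligned bases. Its counts were 18.9% to 32.0% of those of *Etv5* in every one of the 36 libraries, so the split of reads between the 2 is uncertain.

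Promoter windows from RefSeq (GRCm38.p6, 250 bases before to 50 after a start site) were at hand for 6 members in 7 windows. The 4 windows printed here, 1 of the 2 for *Etv5*, belong to members that were called higher in KO at D7, and are shown because the repressor Capicua, which ERK signalling inactivates, is known to bind octamers in promoters of such genes. Capitals mark the octamers TGAATGAA, TGAATGGA, TCAATGAA and TCAATGGA, searched on both strands and written as they read in the window.
Dusp6, chr10:99262981-99263280, plus strand: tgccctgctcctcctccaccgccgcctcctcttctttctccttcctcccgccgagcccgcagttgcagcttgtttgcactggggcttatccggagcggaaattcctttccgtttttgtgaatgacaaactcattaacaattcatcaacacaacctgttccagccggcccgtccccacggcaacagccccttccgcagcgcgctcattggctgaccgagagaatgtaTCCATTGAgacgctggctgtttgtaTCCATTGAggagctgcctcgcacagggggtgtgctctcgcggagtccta
Spry2, chr14:105896770-105897069, minus strand: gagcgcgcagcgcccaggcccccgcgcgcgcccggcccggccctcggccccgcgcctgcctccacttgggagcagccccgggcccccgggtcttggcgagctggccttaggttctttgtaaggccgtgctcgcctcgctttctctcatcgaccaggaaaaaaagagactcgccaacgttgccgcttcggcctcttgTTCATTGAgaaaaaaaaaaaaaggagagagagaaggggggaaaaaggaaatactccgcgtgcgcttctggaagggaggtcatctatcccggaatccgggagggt
Spred1, chr2:117120821-117121120, plus strand: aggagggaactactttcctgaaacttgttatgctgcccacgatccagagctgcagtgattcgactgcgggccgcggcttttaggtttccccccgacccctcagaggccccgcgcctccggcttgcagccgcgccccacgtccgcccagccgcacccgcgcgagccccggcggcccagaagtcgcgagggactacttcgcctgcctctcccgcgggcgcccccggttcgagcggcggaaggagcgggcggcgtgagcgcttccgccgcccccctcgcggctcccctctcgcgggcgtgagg
Etv5, chr16:22439521-22439820, minus strand: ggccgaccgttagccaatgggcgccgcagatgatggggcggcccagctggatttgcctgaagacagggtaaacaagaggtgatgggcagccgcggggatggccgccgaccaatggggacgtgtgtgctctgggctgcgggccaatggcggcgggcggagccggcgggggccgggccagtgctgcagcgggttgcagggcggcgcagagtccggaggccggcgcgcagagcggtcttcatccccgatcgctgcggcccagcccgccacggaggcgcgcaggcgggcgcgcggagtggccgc
*Dusp6* holds the octamer TCCATTGA, the reverse complement of TCAATGGA, at window positions 227 and 252. *Spry2* holds TTCATTGA, the reverse complement of TCAATGAA, at position 197. The *Spred1* and *Etv5* windows hold none of these letters. Any of the 4 forms was present in 2 of the 7 member windows and in 3.84% of 32851 promoter windows. The letters CCGGAAGT (an Ets site), TGANTCA (AP-1) and TGACGTCA (cyclic AMP response element), each searched on both strands, were in none of these 7 member windows and in 3.89%, 7.81% and 1.79% of all windows. Such matches describe the letters and not binding.

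The step from WT MEFs to WT cells at D3 addressed how the members change as reprogramming begins. All 10 log2FC were negative and 9 of 10 members, all but *Spred2*, were called lower, where 37.1% of all genes tested were called lower, and the 9 were DEGs. The median log2FC of the 10 members was -3.38 and that of all genes -0.01.

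Of the Sprouty genes, *Spry1* went from 1991, 2176 and 2028 in the 3 WT MEF libraries to 106, 62.0 and 59.1 at D3 (log2FC -4.76 ± 0.28 SE, DESeq2 FDR 2.56e-63). *Spry2* went from 6843 to 7065 down to 385 to 418, which was 17.6-fold lower. *Spry4* kept more of its level, with 6304, 6439 and 6326 in MEFs and 1122, 789 and 740.4 at D3, or 7.19-fold lower. The groups did not overlap for any of these genes.

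The Spred genes parted at this step. *Spred1*, whose product binds neurofibromin and keeps Ras inactive, went from 12543, 12189.6 and 11901 to 1079, 1089 and 955 (log2FC -3.55 ± 0.21, DESeq2 FDR 3.53e-62). *Spred2* went from 2930.5, 2929 and 2991 to 2517, 2168 and 2198. Its WT groups did not overlap, but the log2FC of -0.36 ± 0.17 missed the threshold in the 36-library fit (DESeq2 FDR 0.0521) and passed it with 35 libraries (FDR 8.92e-05).

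Of the phosphatases, *Dusp6*, which is specific for ERK and resides in the cytoplasm, changed most of all members. It stood at 9917, 9784 and 9969.9 in WT MEFs and at 129, 66.0 and 78.5 at D3, 108-fold lower (log2FC -6.76 ± 0.41, DESeq2 FDR 5.24e-59). The nuclear phosphatase gene *Dusp4* went from 6275, 6004 and 6441 to 811, 628 and 587, 9.24-fold lower. Per kb, *Dusp6* went from the second highest of the members in MEFs to the second lowest at D3 (29.1 ± 10.7), and *Dusp4* to 247 ± 43.6.

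The PEA3 factors moved unequally. *Etv5* went from 3936, 3880.4 and 3865 to 221, 176 and 149 (log2FC -4.42 ± 0.23, DESeq2 FDR 1.66e-81). *Etv4* went from 2202, 2413 and 2419.8 to 1378, 859 and 907 (log2FC -1.16 ± 0.50, FDR 0.0286). *Egr1* went from 4964, 5339 and 5152 to 3594, 649 and 1119 (log2FC -1.53 ± 0.60, FDR 0.0159). In *Etv4* and *Egr1* replicate 1 stayed well above the other D3 libraries, which is taken up below.

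In KO cells 7 of 10 members were called lower at D3 than in MEFs, where 37.6% of all genes were. The 3 others, *Spred2*, *Etv4* and *Egr1*, had log2FC of -0.14, -0.62 and -1.18 and were called as well without MEF KO replicate 3, at -0.45, -1.12 and -1.55. The difference between the KO and WT changes from MEF to D3 was called for 0 of 10 members by DESeq2 and by edgeR, for 1 at an unadjusted p under 0.05, and for 0.112% of all genes.

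Among the other genes of the pathway, 17 of 22 cascade components changed between WT MEFs and D3, 13 of them lower, where 37.1% of all genes were called lower. The 4 lower with the lowest FDR were *Shc1* (log2FC -1.97), *Mapk3*, which encodes ERK1 (-2.47), the scaffold *Ksr1* (-3.78) and *Grb2* (-0.60). The 4 that rose included *Sos1* (0.86) and *Map2k1* (0.45). Of 15 other ERK-responsive genes 12 changed and 11 of them fell, with *Ier3* (-2.86), *Etv1* (-5.77), *Epha4* (-2.65) and *Spred3* (-2.43) first, and *Ier2* rose (0.52). The median log2FC was -0.46 for the cascade and -1.31 for the other responsive genes.

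Between D3 and D5 the members stayed low. In WT cells *Spred1* alone was called, from 1079, 1089 and 955 to 760.2, 654 and 598 (log2FC -0.63 ± 0.21, DESeq2 FDR 0.0160), where 12.7% of all genes were called lower. That call was lost when D3 WT replicate 1, D3 WT replicate 2 or D5 WT replicate 2 was left out. In KO cells *Etv5* alone was called, from 315, 319.8 and 249 to 820.2, 1386 and 859 (log2FC 1.79 ± 0.23, FDR 1.30e-13), where 14.5% of all genes were called higher. Without MEF KO replicate 3 in the shared spread, both *Spred1* and *Etv5* were called in each genotype.

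From D5 to D7 members rose again. In WT cells 5 of 10 were called higher, beside 13.5% of all genes. *Etv5* went from 349, 231 and 188 to 2053, 2362 and 2151 (log2FC 3.09 ± 0.23, DESeq2 FDR 5.14e-39), and *Dusp6* from 72.8, 61.9 and 74.9 to 306, 529.6 and 379.7 (2.54 ± 0.42, FDR 5.83e-08). *Spry2* (0.92), *Spry1* (0.90) and *Spred1* (0.76) rose less than 2-fold. In the 35-library fit *Spred2* was called too, with a DESeq2 FDR of 0.0495 in WT and 0.000735 in KO cells. In KO cells 6 were called higher, beside 20.3% of all genes. These were the same 5 and *Spry4*, and their log2FC ran from 0.91 for *Spry1* to 3.36 for *Dusp6*.

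The KO against WT comparison at each stage is the main one of the series. In MEFs 0 of 10 members were called by DESeq2 or edgeR and 1 had an unadjusted p under 0.05, with 0.0428% of all genes called. All 10 log2FC were negative, between -0.53 and -0.27, but without KO replicate 3 they lay between -0.19 and 0.05 and *Spred1*, *Spred2*, *Dusp4* and *Dusp6* turned to above 0. At D3 0 of 10 members were called by either tool, with 1 at an unadjusted p under 0.05 and 0.493% of all genes called. *Etv5* was highest, at 315, 319.8 and 249 in KO and 221, 176 and 149 in WT. These libraries did not overlap (log2FC 0.69 ± 0.23, DESeq2 FDR 0.221), and the call was made in the 35-library fit (FDR 0.0276). Every KO library lay above every WT library in this 1 member, as in 7.26% of 19758 genes.

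**Figure D3:**
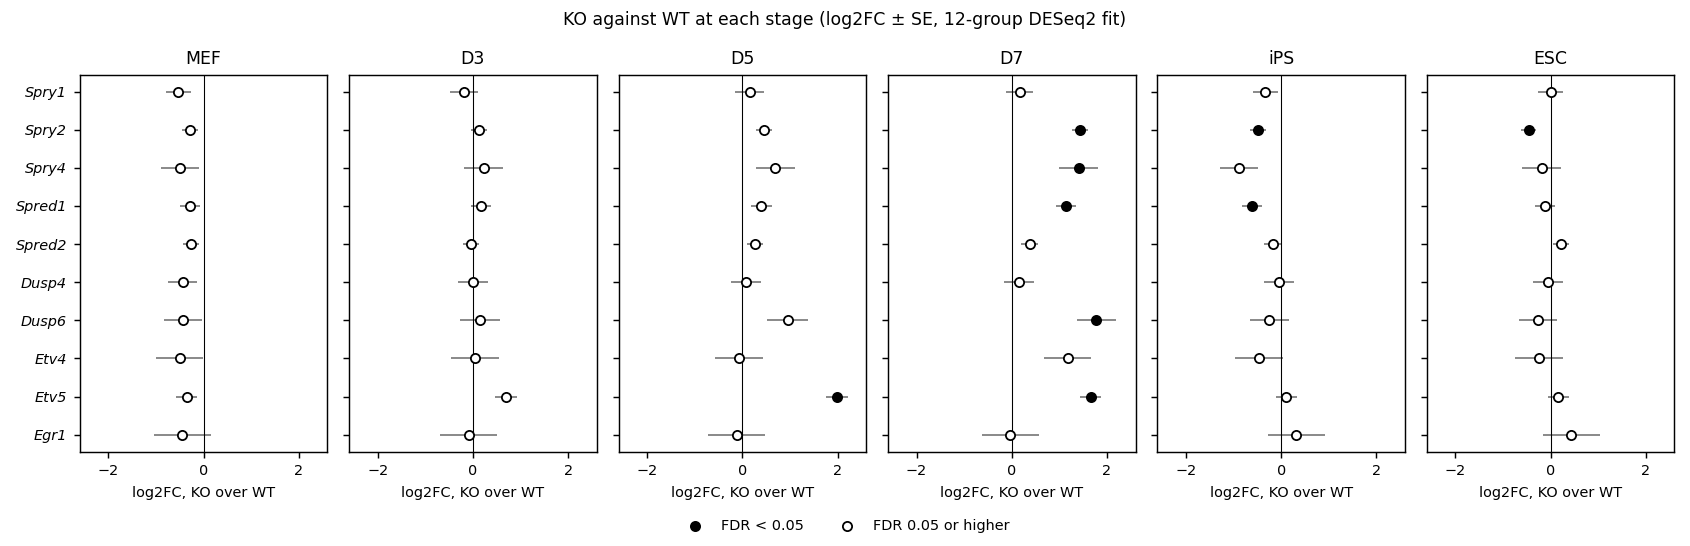
Log2FC of KO over WT (horizontal axis, ± SE of the 36-library DESeq2 fit) for each member at each stage, filled where the FDR was below 0.05. Filled points lie to the right at D5 (1 gene) and D7 (5 genes) and to the left in iPSCs (2 genes) and ESCs (1 gene).

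At D5 *Etv5* was higher in KO cells. Its KO libraries read 820.2, 1386 and 859 and its WT libraries 349, 231 and 188, which was 3.98-fold higher (log2FC 1.99 ± 0.23, DESeq2 FDR 3.16e-15). It was the 1 member called, where 4.72% of all genes were called higher. In 6 members every KO library lay above every WT library, which was so for 15% of 19958 genes. These were *Spry2*, *Spry4*, *Spred1*, *Spred2*, *Dusp6* and *Etv5*. The same 6 were called in the 35-library fit, for which the share of all genes called is not given.

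*Dusp6* read 119, 176 and 110.2 in KO and 72.8, 61.9 and 74.9 in WT at D5 (log2FC 0.95 ± 0.42, DESeq2 FDR 0.177, and 0.00714 with 35 libraries). *Spry2* read 494, 544 and 498 in KO and 375, 384 and 359 in WT (0.46 ± 0.17, FDR 0.0823, and 0.0284). *Spry4* read 1119, 1015 and 855 in KO and 851, 504 and 498 in WT (0.69 ± 0.41, FDR 0.380, and 0.0341).

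At D7 the KO cells had more RNA of 5 members, and all 5 were DEGs. Of all genes tested 13.3% were called higher and 3.95% were higher DEGs. The count was 5 when any 1 of the 6 D7 libraries was left out and 5 by edgeR. The median log2FC of the 10 members was 1.16 and that of all genes -0.04.

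Among the Ras and receptor-level inhibitors, *Spry2* read 1819, 2229.5 and 1674 in KO and 665, 839.8 and 607 in WT. The lowest KO library was above the highest WT library, and the difference was 2.71-fold (log2FC 1.44 ± 0.17, DESeq2 FDR 4.70e-16). *Spry4* read 2111, 2818 and 2210.4 in KO and 869, 993 and 836 in WT, 2.65-fold higher (1.40 ± 0.41, FDR 0.00321). *Spred1* read 2481, 2739.9 and 2317 in KO and 1075, 1185 and 1153 in WT, 2.21-fold higher (1.14 ± 0.21, FDR 1.23e-06). For none of these genes did the genotypes overlap.

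*Dusp6* had the largest difference of all members at D7. It read 1355, 1501 and 1305 in KO and 306, 529.6 and 379.7 in WT, 3.42-fold higher (log2FC 1.78 ± 0.41, DESeq2 FDR 0.000127). *Etv5* read 6822, 7856 and 6072 in KO and 2053, 2362 and 2151 in WT, 3.16-fold higher (1.66 ± 0.22, FDR 4.02e-12). KO cells at D7 therefore held more *Etv5* than WT MEFs did (3865 to 3936), while their *Dusp6* remained below the MEF level.

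*Etv4* and *Spred2* were at the border. *Etv4* read 791, 1134 and 1138 in KO and 406, 489 and 462 in WT. The genotypes did not overlap and the log2FC was 1.18 ± 0.50 (DESeq2 FDR 0.0602, and 0.0321 with the replicate number as a block). *Spred2* read 2940.0, 3135 and 3156 in KO and 2437, 2312 and 2369 in WT (0.37 ± 0.17, FDR 0.0906, and 0.108 with the block). Both were called in the 35-library fit, at FDR 0.00774 and 0.000196. With these 2 genes, every KO library lay above every WT library in 7 members, as in 21.4% of 20425 genes.

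*Spry1*, *Dusp4* and *Egr1* did not part the genotypes at D7. *Spry1* read 101, 111 and 113 in KO and 129, 89.6 and 72.0 in WT. *Dusp4* read 566, 652 and 622 in KO and 556, 516 and 589 in WT. *Egr1* read 1063, 1602 and 1021 in KO and 1086, 1863 and 820.0 in WT. The KO and WT libraries overlapped in all 3 genes.

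The difference between KO effects at 2 stages was tested as a contrast of the same fit. From D3 to D7 the KO effect grew for 4 of 10 members, beside 13% of all genes called in either direction. The growth was 1.31 ± 0.24 on the log2 scale for *Spry2* (DESeq2 FDR 4.97e-06), 0.98 ± 0.30 for *Spred1* (0.0147), 1.62 ± 0.59 for *Dusp6* (0.0449) and 0.97 ± 0.32 for *Etv5* (0.0268). edgeR called *Spry2* and *Spred1*, and the 35-library fit also called *Spry4* (DESeq2 FDR 0.00430) and *Spred2* (0.00967). Without both replicate 1 libraries at D3 and at D5 only *Spry2* was called. The count fell to 2 without D3 WT replicate 1, D3 KO replicate 3, D7 WT replicate 1 or D7 WT replicate 3, and to 1 without D7 KO replicate 2. From D5 to D7 the effect grew for *Spry2* (0.98 ± 0.24, DESeq2 FDR 0.00240), beside 5.84% of all genes called in either direction. In the 35-library fit it also grew for *Spred1* (FDR 0.00508). From D3 to D5 0 members were called by DESeq2 or edgeR, with 1 at an unadjusted p under 0.05 and 0.064% of all genes called. That member was *Etv5*, with a growth of 1.30 ± 0.33 (DESeq2 FDR 0.0636), which fell to 0.00126 in the 35-library fit.

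D7 levels were also placed between those of WT D7 cells and WT iPSCs on the log2(normalised count + 1) scale. The KO mean at D7 had covered 70.0% of that distance for *Etv5*, 69.7% for *Dusp6*, 67.7% for *Spred1*, 64.9% for *Etv4*, 54.5% for *Spry2* and 44.2% for *Spry4*. For *Spry1* it had covered 6.78%, although WT iPSCs held 7.96 times as much *Spry1* as WT D7 cells. For *Egr1*, which was lower in WT iPSCs, the share was -0.995%. No share was taken for *Spred2* and *Dusp4*, whose distance was small (0.0551 and 0.623). These shares are descriptions of means over 3 libraries.

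**Figure D4:**
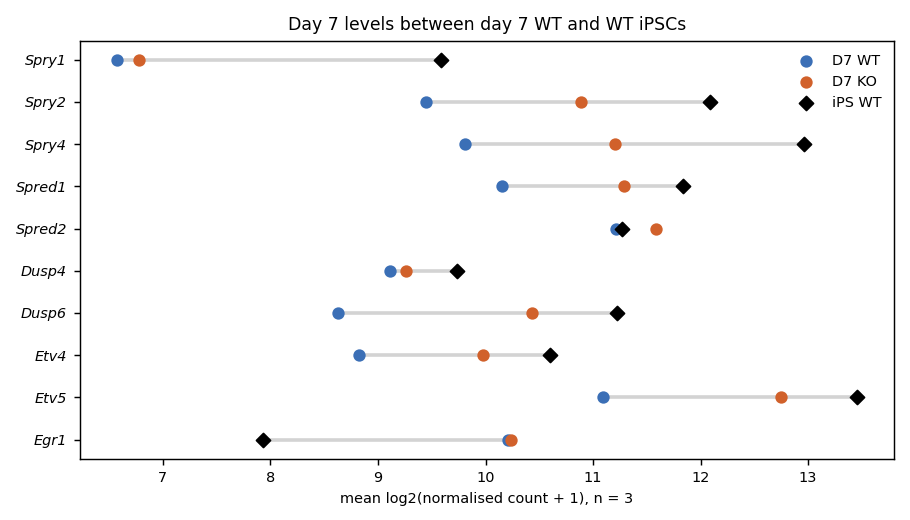
Mean log2(normalised count + 1) of 3 libraries for D7 WT (blue), D7 KO (orange) and WT iPSCs (black diamonds), with a grey line from D7 WT to WT iPSCs for each member. The orange point lies at 44.2% to 70.0% of the line for 6 genes and at 6.78% for *Spry1*. It also lies between the ends for *Dusp4*, above both ends for *Spred2*, and next to the D7 WT point for *Egr1*.

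Marker genes of cell state moved with genotype at D7 as well. The 7 pluripotency markers summed to 24276 to 32155 in KO libraries and to 5393 to 9303 in WT libraries, with every marker above 10 on average in both genotypes. The 8 fibroblast markers summed to 12049 to 25467 in KO and to 37167 to 46248 in WT. At D5 the pluripotency sums were 2711 to 4067 in KO and 1224 to 1473 in WT. The part of these shifts in the member levels was not tested.

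Of the 22 cascade components 6 were called at D7, all higher in KO, where 13.3% of all genes were called higher. Among them were *Grb2* (log2FC 0.30), the kinase gene *Rps6ka1* (0.62) and *Shc1* (0.38). The count was 10 in the 35-library fit, 7 higher and 3 lower. Of the 15 other responsive genes 5 were called, all higher. The first 4 were the receptor gene *Epha4* (1.75), *Etv1*, the remaining PEA3 factor (1.79), the FGF antagonist *Il17rd* (0.56) and the ERK phosphatase gene *Dusp5* (0.92). Median log2FC was 0.02 in the cascade and 0.10 in the other responsive genes, against 1.16 in the members.

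From WT D7 cells to WT iPSCs 8 of 10 members rose and *Egr1* fell, beside 35.8% of all genes called higher and 37.7% called lower. *Spry4* rose most, from 869, 993 and 836 to 8145, 10371 and 6036 (log2FC 3.19 ± 0.41, DESeq2 FDR 1.40e-14). *Spry1* rose by 2.99, *Spry2* by 2.64, *Dusp6* by 2.63, *Etv5* by 2.37, *Etv4* by 1.88 and *Spred1* by 1.72 on the log2 scale. *Dusp4* was at the threshold (0.65 ± 0.31, FDR 0.0499). *Egr1* went from 1086, 1863 and 820.0 to 253, 196 and 291, 5.09-fold lower (FDR 0.000166).

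From KO D7 cells to KO iPSCs 4 members rose and 2 fell, beside 35.3% and 33.6% of all genes. *Spry1* rose by 2.49, *Spry4* by 0.90, *Etv5* by 0.81 and *Spry2* by 0.71 on the log2 scale. *Spred2* fell by 0.50 and *Egr1* by 2.0. *Spred1* read 2481, 2739.9 and 2317 at D7 and 2915, 2539 and 1880.0 in the clones, so its groups overlapped. *Dusp4* (DESeq2 FDR 0.00885) and *Dusp6* (0.0184) were called higher as well in the 35-library fit.

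In the cascade 15 of 22 genes changed between WT D7 cells and WT iPSCs, 8 higher and 7 lower. Of all genes tested 35.8% were called higher and 37.7% lower, and the cascade counts lie near these shares. The 4 higher genes with the lowest FDR were the docking adaptor gene *Gab1* (log2FC 4.11), *Shc1* (0.48), *Rps6ka1* (0.65) and *Braf* (0.57). The 4 lower genes with the lowest FDR were *Rps6ka3* (-1.46), *Ptpn11* (-0.80), *Map2k1* (-0.69) and *Sos2* (-1.21). Of the 15 other responsive genes 4 rose and 9 fell. *Epha4* (2.68), *Il17rd* (1.10), *Etv1* (2.04) and *Ier2* (0.97) rose, and the first of the falling genes were *Fosl1* (-5.06), *Phlda1* (-3.65), *Fos* (-3.95) and *Spred3* (-2.17). The median of the other responsive genes was -1.81 and that of the members 2.13.

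In the iPSC clones 2 members were lower in KO, beside 6.63% of all genes. *Spry2* read 3323, 3219 and 2810.4 in KO and 4119, 5036 and 3975 in WT, without overlap (log2FC -0.49 ± 0.16, DESeq2 FDR 0.0210). *Spred1* read 2915, 2539 and 1880.0 in KO and 3492, 4848 and 2878 in WT, where the highest KO clone lay above the lowest WT clone (-0.61 ± 0.21, FDR 0.0270). *Spry4* read 4325, 5909 and 3044 in KO and 8145, 10371 and 6036 in WT (-0.89 ± 0.40, FDR 0.121, and 0.00154 with 35 libraries). The calls of *Spry2* and *Spred1* were both lost when WT clone 2 or KO clone 3 was left out. Every KO clone lay below every WT clone in 3 members, *Spry2*, *Spry4* and *Spred2*, as in 8.95% of 20029 genes. In the cascade 2 genes were higher (among them *Grb2*, 0.16) and 2 lower (*Shc1*, -0.31, and *Hras*, -0.41). Of the 15 other responsive genes 1 was called (*Ier3*, 0.85). The share of all genes called higher in iPSCs is not given here, so these counts are not read as a result about the 2 lists. KO clone 1 held 624 in the sum of 5 endoderm markers against 68.7 to 130.4 in the other iPSC clones, and its part in these values was not tested.

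In ESCs *Spry2* was the 1 member called, lower in KO, beside 4.29% of all genes. It read 3908, 2502 and 2314 in the KO clones and 3868, 4025 and 4123 in the WT line (log2FC -0.46 ± 0.16, DESeq2 FDR 0.0466). KO clone 1 was thus within the WT range. The call was not made by edgeR (FDR 0.0812). It was lost when any of the 3 WT libraries, KO replicate 2 or KO replicate 3 was left out. Every KO library lay below every WT library for *Dusp6*, as in 14.5% of 19931 genes. For *Etv5* every KO library lay above, as in 17.1%. Neither gene was called. The KO effect in iPSCs and that in ESCs differed for 0 of 10 members by DESeq2 or edgeR, with 0 at an unadjusted p under 0.05 and 1.47% of all genes called.

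WT iPSCs and WT ESCs were compared next, since iPSCs are meant to match ESCs. DESeq2 and edgeR each called 0 of 10 members, with 2 at an unadjusted p under 0.05 and 3.2% of all genes called. *Spred1* and *Spred2* were lower in ESCs in the 35-library fit, by 0.49 (DESeq2 FDR 0.0163) and 0.35 (FDR 0.00737) on the log2 scale. In KO cells 0 of 10 were called by either tool, with 0 at an unadjusted p under 0.05 and 6.45% of all genes called.

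Against WT MEFs, WT ESCs had 1 member higher and 8 lower, beside 40% and 39.4% of all genes. *Etv5* was the member that was higher, at 10416, 11195 and 11452 against 3936, 3880.4 and 3865 (log2FC 1.5 ± 0.22, DESeq2 FDR 2.75e-11). *Egr1* was lowest relative to MEFs, at 293, 296 and 337 against 4964, 5339 and 5152 (-4.06 ± 0.60, FDR 2.70e-11). *Dusp4* followed at 8.61-fold lower, *Dusp6* at 5.17-fold and *Spred1* at 4.57-fold. *Spry4* was not called, at 5371, 5380.1 and 5739 in ESCs and 6304, 6439 and 6326 in MEFs. *Etv4* was called at a DESeq2 FDR of 0.0485 but not by edgeR (FDR 0.0676). TMM factors moved the median of all genes by 0.11 on the log2 scale in this comparison, and *Etv4* was not called with them either.

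The order of the WT stage means shows which levels can be separated. For *Dusp6* and *Spry2* the order was MEF, iPS, ESC, D7, D3 and D5, and neighbours were not told apart (DESeq2 FDR of 0.05 or more) for iPS and ESC and for D3 and D5. *Spry1* and *Spred1* had this order too. For *Spry1* D7 and D3 were not told apart either, and for *Spred1* the pairs not told apart were iPS with ESC and D7 with D3. For *Etv5* the order was iPS, ESC, MEF, D7, D5 and D3, and iPS with ESC and D5 with D3 were not told apart. For *Spry4* it was iPS, MEF, ESC, D7, D3 and D5, and only the step from ESC to D7 separated neighbours. For *Dusp4* it was MEF, iPS, ESC, D3, D7 and D5, and only MEFs stood clear of their neighbour. For *Spred2* and *Etv4* no neighbours were told apart. For *Egr1* it was MEF, D3, D7, D5, ESC and iPS, with D3, D7 and D5 not told apart, nor ESC and iPS.

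*Egr1* differed widely between replicates at D3 and D5. At D3 it read 3594 in WT replicate 1 and 3506 in KO replicate 1 and 649 to 1119 in the other 4 libraries. At D5 it read 1816 and 1555 in the replicate 1 libraries and 666 to 807 in the others. *Etv4* followed, at 1378 and 1374 against 859 to 943 at D3 and at 1027 and 862 against 395 to 525 at D5. Both replicate 1 libraries lay above the other 4 in 7 members at D3, in 4 at D5 and in 0 at D7. Of 14637 genes with a mean of at least 50, this was so for 11.6%, 6.5% and 3.92%.

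**Figure D5:**
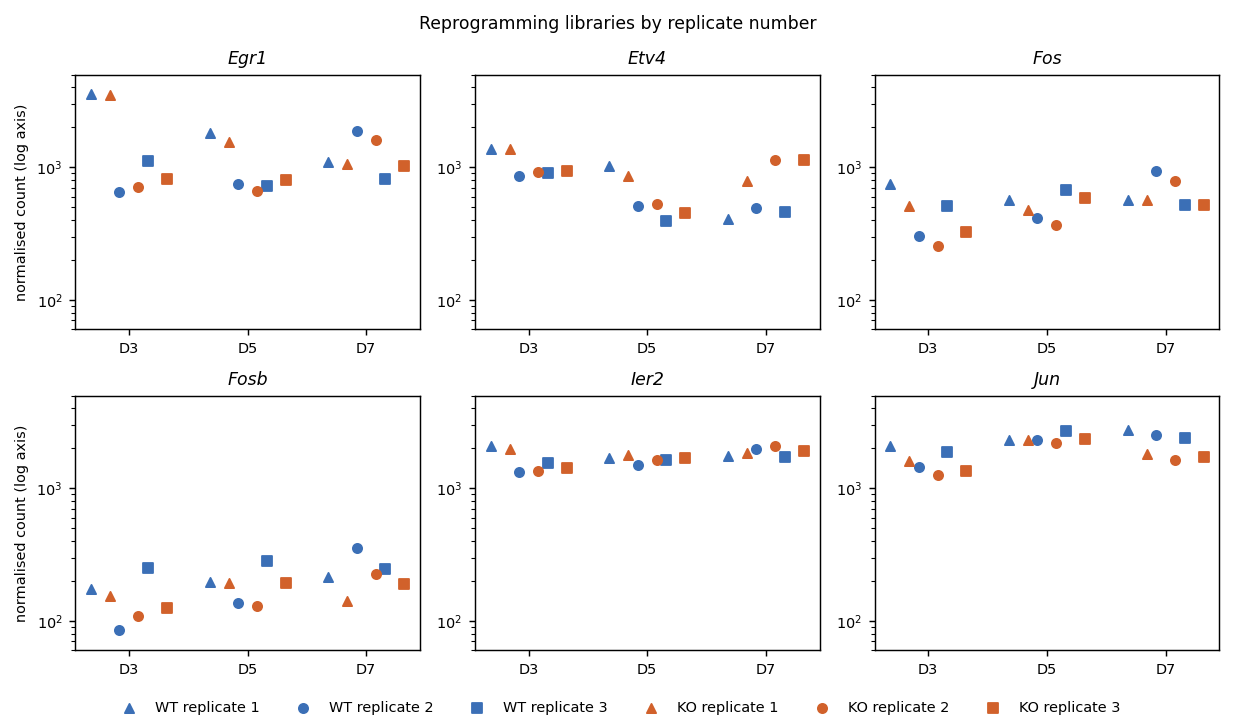
Normalised counts (log axis) of *Egr1*, *Etv4* and 4 genes that respond to handling of cells (*Fos*, *Fosb*, *Ier2*, *Jun*) at D3, D5 and D7, WT in blue and KO in orange, with triangles, circles and squares for replicates 1, 2 and 3. The triangles of *Egr1* lie at 3506 and 3594 at D3, above all other D3 points, while for *Fosb* and *Jun* at least 1 triangle lies below another D3 point.

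Of 9 genes known to respond to handling, replicate 1 of both genotypes was above the other D3 libraries in 4 (*Fos*, *Junb*, *Ier2*, *Nr4a1*) and by no more than 2-fold, and in 0 of 9 at D5. The sum of the 9 was 10207 and 9021 in the replicate 1 libraries at D3 and 7093 to 8922 in the others. Whether handling has a part in the *Egr1* levels was not tested. Without replicate 1 at D3 and D5, the change of *Egr1* from WT MEFs to D3 was -2.54 on the log2 scale in place of -1.53.

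Over the 12 group means of log2(normalised count + 1), Pearson's r between members ran from -0.45 (*Etv5* and *Egr1*) to 0.98 (*Spry2* and *Dusp6*), with a median of 0.68 over 45 pairs. Among 14627 other genes with a mean of at least 50, the closest in pattern was Gm4798 for *Etv5* (r 1.00), which shares its sequence. It was *Dennd2a* for *Spry1* (0.995), *Dusp6* had *Cbx6* (0.994), *Egr1* had *Rin1* (0.994) and *Spry2* had *Pgap2* (0.992). For *Dusp4* it was *Smarcc2* (0.987), for *Spry4* *Setd1b* (0.987) and for *Spred1* *Ptk7* (0.985). *Spred2* (*Chd4*, 0.931) and *Etv4* (*Tnk2*, 0.919) had the least similar partners, and for each of these members 1 gene exceeded an r of 0.9, against 558 to 1587 genes for the other 8. All points share the same libraries and stages, so such values describe the pattern only.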

How the data were processed

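After adapter removal with Cutadapt the authors aligned reads to GRCm38 with STAR, assigned them to genes with Rsubread, and deposited a table of raw counts and a table of normalised counts (a signal without unit) for 36 bulk RNA-seq libraries in 12 groups of 3. The deposited normalised count equalled the count divided by the DESeq2 size factor in every library. Read strand in counting is not given in the sources used here. The deposited tables of the authors' own comparisons hold fold changes and p-values and were not used. Of 21442 genes 21390 matched GENCODE vM21, which gave positions and exon lengths.

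Differences were tested with DESeq2 1.42.0 (Wald test, default independent filtering, R 4.3.3) on the raw counts in 1 fit of 12 groups, as contrasts of groups or of KO effects. The FDR is the Benjamini-Hochberg value over all genes. For exploratory work the study removed batch effects, with the date of library preparation as an example. No such date is among the labels used here, so the fit has no term for it. A call needed an FDR below 0.05 and a DEG also log2FC > |1|. The scale for means, positions and correlations was log2(normalised count + 1). Alternatives were edgeR 4.0.16 (quasi-likelihood), TMM factors, a filter of at least 10 counts in 3 libraries, the compared groups alone, the replicate number as a block, and leaving out each replicate. Leaving MEF KO replicate 3 out of the shared spread, and both replicate 1 libraries at D3 and at D5, were chosen after seeing the data. In 200 simulated changed genes at D7, DESeq2 recovered 196 with 19 false calls and edgeR 198 with 8. The simulation gave every gene the same dispersion, whereas the members differ in theirs, so these counts do not give the power for the members.

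The members, the lists of other genes and the markers were chosen with earlier results of these data known. All 10 members are named, and of each other list up to 4 called genes per direction with the lowest FDR. Some genes that this rule names are not reported here. For each member the gene with the highest Pearson's r over the group means is named too. Same-numbered WT and KO libraries deviated together at D5 (r 0.0897 to 0.268 over 14637 genes) and at D7 (0.172 to 0.392). The highest r of libraries with unlike numbers was 0.0160 at D5 and -0.00933 at D7. At D3 the pairs ran from 0.101 to 0.456, and the highest r of unlike numbers was 0.126. The lowest r of a pair was -0.0248 in MEFs, -0.142 in iPSCs and -0.0275 in ESCs. A floor of 3 counts corresponded to 2.31 to 5.22 normalised counts and covers counting error only.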

Additional observations from a re-analysis of the deposited data

Results flagged for a closer look

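The effect of the KO differed between stages for 4 members, by a contrast of KO effects in the DESeq2 fit. For *Spry2*, which restrains receptor signalling to Ras, KO over WT was 1.31 ± 0.24 higher on the log2 scale at D7 than at D3 (FDR 4.97e-06) and 0.98 ± 0.24 higher at D7 than at D5 (FDR 0.00240). For *Spred1* the difference between D7 and D3 was 0.98 ± 0.30 (FDR 0.0147), for *Dusp6* 1.62 ± 0.59 (FDR 0.0449) and for *Etv5* 0.97 ± 0.32 (FDR 0.0268). These 4 calls between D7 and D3 stand beside 13% of all genes called in either direction. edgeR did not call *Dusp6* (FDR 0.110) or *Etv5* (FDR 0.0582). Without both replicate 1 libraries at D3 and at D5, *Spred1* (DESeq2 FDR 0.0711), *Dusp6* (0.169) and *Etv5* (0.1003) were not called. All had 3 libraries per group, and at D7 each KO library lay above each WT library in all 4 genes.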

How the results depend on the processing

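The call counts at D7 KO against WT (5 of 10) were 5 without any 1 library, and 7 in the 35-library fit. The larger moves in the counts are given per alternative. With the compared groups alone they were 1 (D3 KO against WT), 5 (D5), 2 (ESC), 2 (WT D5 against D3), 2 (KO D5 against D3), 3 (KO effect D7 against D5) and 7 (KO effect D7 against D3), and 0 for both other lists in iPSCs. With the replicate block, which paired libraries by number, they were 2 (D5, *Spry2* and *Etv5*) and 1 (KO effect D5 against D3), and 6 at D7. In the 35-library fit they were 1 (D3), 6 (D5), 2 (WT D5 against D3), 2 (KO D5 against D3), 2 (WT ESC against iPS), 1 (KO effect D5 against D3), 2 (KO effect D7 against D5), 10 (cascade at D7), 10 (KO D3 against MEF), 8 (KO iPS against D7), 6 (KO effect D7 against D3) and 2 (other responsive genes in iPSCs). edgeR gave 0 in ESCs and 2 for the KO effect D7 against D3. Without replicate 1 at D3 and D5 they were 0 (ESC), 0 (WT D5 against D3), 1 (KO effect D5 against D3) and 1 (KO effect D7 against D3). The causes were not tested.

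Leaving out 1 library gave 0 to 2 calls in iPSCs, 0 to 1 in ESCs, 0 to 1 for WT D5 against D3, 7 to 10 for each of WT and KO D3 against MEF, 4 to 5 for WT D7 against D5, 5 to 6 for KO D7 against D5, 8 to 9 for WT iPS against D7, 5 to 6 for KO iPS against D7 and 8 for WT ESC against MEF. It gave 0 to 1 for WT ESC against iPS, where the 1 came without iPS WT replicate 3, and 1 to 4 for the KO effect D7 against D3. For the KO effect D5 against D3 it gave 0 to 1, with the 1 without D3 WT replicate 3, D5 WT replicate 1, D5 KO replicate 1 or D5 KO replicate 3. For the cascade in iPSCs it gave 1 to 8, with 8 without iPS WT replicate 1, 2 without iPS WT replicate 2 and 1 without iPS KO replicate 1. For the other responsive genes it gave 3 to 5 at D7, with 3 without D7 WT replicate 1, and 0 to 2 in iPSCs, with 2 without iPS WT replicate 2 or iPS KO replicate 3 and 0 without iPS KO replicate 1. Without MEF KO replicate 3, and equally in the 35-library fit, the log2FC in MEFs turned to 0.0487 (*Spred1*), 0.0393 (*Spred2*), 0.0153 (*Dusp4*) and 0.0369 (*Dusp6*), and their lowest values without another library were -0.48, -0.45, -0.74 and -0.78. *Spred2* in KO D3 against MEF ran from -0.45 without MEF KO replicate 3 to 0.0384 without MEF KO replicate 1, and was 0.0375 without MEF KO replicate 2. By Spearman's rho another gene was closest in pattern for 8 of 10 members. With 3 libraries per group, differences near the spread between replicates were not detectable.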
